A study of Homo sapiens with 8 samples.

Results

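The genes of the small RNA machinery were examined in lung cancer cell lines that had received either a small RNA duplex or a genome edit. The set held 10 genes chosen by name: the Argonautes *AGO1*, *AGO2*, *AGO3* and *AGO4*, the nucleases *DICER1* and *DROSHA*, their partners *TARBP2* and *DGCR8*, the export factor *XPO5* and the silencing scaffold *TNRC6A*. All 10 were found among the 22439 genes that could be named on the array, and they were read by 14 probes. The data were 8 Agilent arrays of 2 colours, each comparing RNA of treated cells, labelled with Cy5, with RNA of control cells of the same line, labelled with Cy3. In the miR-150-3p group (n = 2), EBC-1 or SK-MES-1 cells, both derived from lung squamous cell carcinoma (LUSQ), received miR-150-3p by transfection, with 1 array for each line. In the siDONSON group (n = 3), SBC-3, a line of small cell lung cancer, was transfected with siDONSON-1, siDONSON-2 or siDONSON-3, siRNAs against *DONSON*, a factor of DNA replication. In the LOXL2 editing group (n = 3), A549 cells, a lung adenocarcinoma line, carried a CRISPR/Cas9 edit of *LOXL2*, which encodes a lysyl oxidase-like enzyme, and were named A549-GE1, A549-GE2 and A549-GE3. The control of each transfection was labelled both as mock and as untransfected, and the control of the edit as unedited. The labels give lipid transfection as the treatment for every sample, so whether the A549 cells also met the reagent is not known, and they do not say whether the 3 edited A549 samples were clones, pools or different guides. Treatment and cell line cannot be told apart in this design.

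MicroRNAs are cut from their primary transcripts in the nucleus by DROSHA with its RNA-binding partner DGCR8, a pair known as the Microprocessor, and are carried to the cytoplasm by XPO5. There DICER1, with TARBP2, removes the loop, and a strand of the resulting duplex is loaded into an Argonaute protein to form the RNA-induced silencing complex (RISC), in which TNRC6A, a GW182 protein, recruits the deadenylases that shorten the target's poly(A) tail. Transfected miRNA and siRNA duplexes enter this pathway at the loading step, after the cuts of DROSHA and DICER1, whereas a CRISPR/Cas9 edit does not use it.

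All 14 probes were well above background in both channels on all 8 arrays. Each gene's value was the log2 ratio of treated over control, averaged over its probes, and the scanner software's own error for such a value ranged from 0.07 for *AGO2*, which was printed in 10 spots, to 0.25 for *AGO4*. The median log2 ratio over all genes lay between 0.02 and 0.05 on every array. The targeted genes checked the labels. *DONSON* had log2 ratios of -2.15, -1.79 and -2.11 on the siDONSON arrays, and *LOXL2* had -2.49, -2.67 and -2.59 on the LOXL2 editing arrays. Of 5 squamous markers, only *SOX2* was above background in EBC-1 control RNA and only *SOX2* and *TP63* in SK-MES-1 control RNA, with *KRT5*, *KRT6A* and *DSG3* not above background in either line. Of the markers of the other labelled types, SBC-3 had 3 of 5 neuroendocrine markers above background (*CHGA*, *SYP* and *NEUROD1*) and A549 had 2 of 5 adenocarcinoma markers (*NAPSA* and *MUC1*, not *NKX2-1*). Markers of other types were also above background, with 3 of 5 adenocarcinoma markers in SK-MES-1 (*NAPSA*, *SFTPC* and *MUC1*) and 2 of 5 in EBC-1 (*NAPSA* and *MUC1*), in each case more than the squamous ones. SBC-3 had *TP63*, *SOX2* and *MUC1* besides its own, and A549 had *SOX2* and *CHGA*. The markers thus did not single out the labelled squamous type of EBC-1 and SK-MES-1. Nor did they set A549 apart as adenocarcinoma, since EBC-1 had the same 2 of those markers. They bore out the label of SBC-3 in part.

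**Figure D1:**
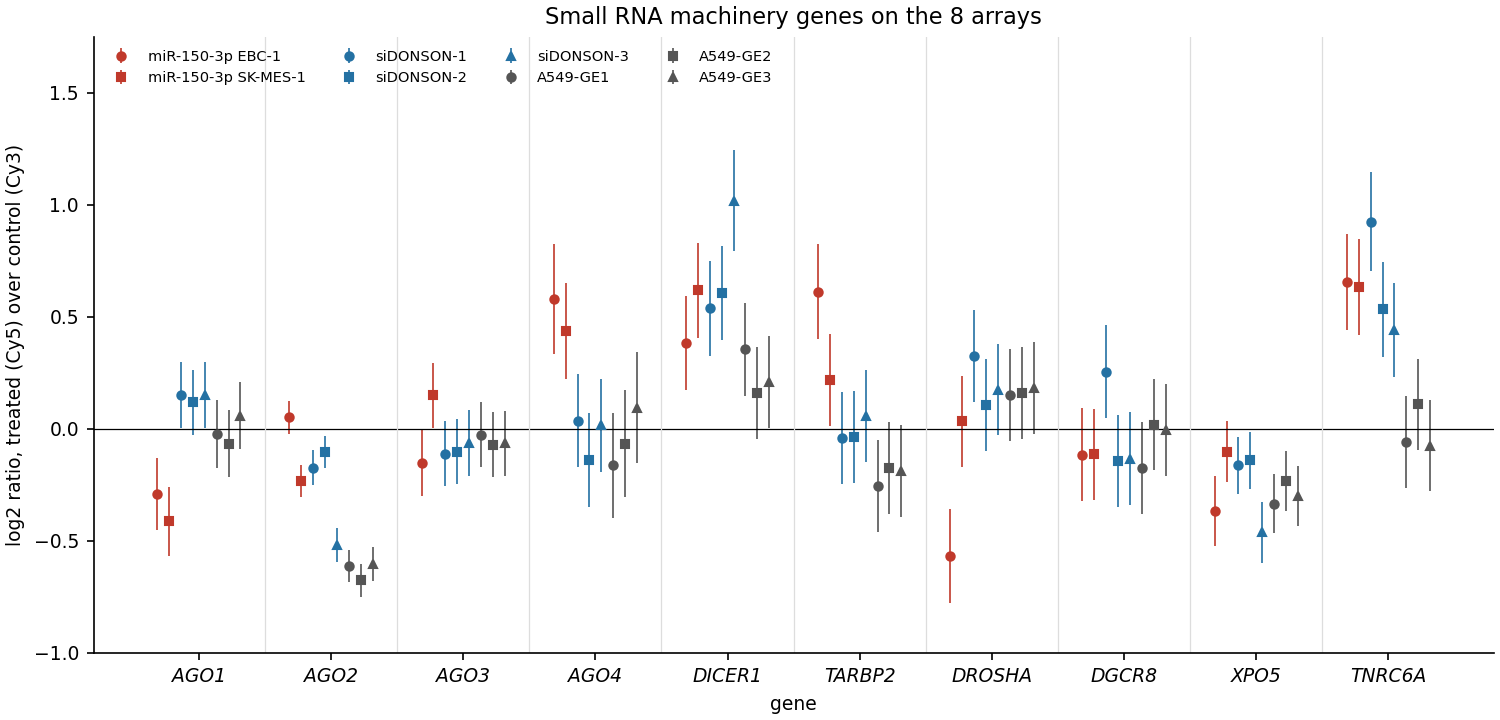
Log2 ratio of treated (Cy5) over control (Cy3) RNA for the 10 genes on each of the 8 arrays, with bars for the error given by the scanner software (1 SD); colours mark the treatments and symbols the arrays. The 5 transfection arrays of *TNRC6A* lie between 0.44 and 0.93 and its 3 editing arrays between -0.07 and 0.11, and the *AGO2* points of the editing arrays lie between -0.68 and -0.60.

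The first question was whether each treatment changed the machinery relative to its own control. *TNRC6A* rose after both kinds of transfection, *AGO4* rose after miR-150-3p, *DICER1* rose after siDONSON and *AGO2* fell after LOXL2 editing, all by less than 2-fold in the mean. In bulk RNA, a change within cells and a change in the mix of cells cannot be told apart. In the limma fit over all 8 arrays, 2 of the 10 genes passed an adjusted p of 0.05 for miR-150-3p, both higher, beside 5.38% of all genes tested. For siDONSON, 2 of 10 passed, both higher, beside 7.22% of all genes. For LOXL2 editing, 1 of 10 passed, lower, beside 14.4% of all genes. The median log2 ratio of the 10 genes was -0.05, -0.01 and -0.05 for miR-150-3p, siDONSON and LOXL2 editing, beside 0.04, 0.03 and 0.02 over all genes tested, with members on both sides of 0 in each treatment. On each miR-150-3p array, 3 of the 10 lay above and 2 below the software's 95% error limits, where 41.7% of all genes lay outside them for EBC-1 and 19.2% for SK-MES-1. Because the fit shares 1 estimate of spread among the treatments and leaves 5 residual degrees of freedom, and because nothing in the labels says that the control RNAs of a line were separate cultures, these p-values measure the spread between arrays only. That spread mixes different siRNAs in the siDONSON group and different lines in the miR-150-3p group. No single siRNA, and neither line given miR-150-3p, had a repeat array.

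In the Microprocessor, the log2 ratio of *DROSHA*, the nuclease, was -0.57 for EBC-1 cells after miR-150-3p and 0.03 for SK-MES-1 cells. On the siDONSON arrays it was 0.33, 0.11 and 0.17, and on the LOXL2 editing arrays 0.15, 0.16 and 0.18. EBC-1 was thus the only array on which *DROSHA* lay below its control. The miR-150-3p mean of -0.27 (SE 0.15) did not pass (limma adjusted p = 0.257), and it rested on the EBC-1 value of -0.57. *DGCR8*, the RNA-binding partner, kept within 0.25 of its control on all 8 arrays, from -0.18 to 0.25, which was inside the software's 95% error limits on each. Among its limma intervals for a treatment against its control, the widest, that of miR-150-3p, ran from -0.41 to 0.18.

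*XPO5*, which exports the precursor, lay below its control on all 8 arrays, from -0.46 on siDONSON-3 to -0.10 in SK-MES-1 cells. Of all genes with a value on every array, 4.85% did so. The treatment means were close to one another at -0.23 for miR-150-3p, -0.26 for siDONSON and -0.29 for LOXL2 editing, and none passed (limma adjusted p = 0.236, 0.157 and 0.0959). Treated RNA was in Cy5 on every array, so a dye effect of these probes cannot be told apart from a change common to all treatments. With another background correction and within-array loess, the sign was not held on every array, with 0.03 in SK-MES-1 cells and values from -0.01 to 0.00 on siDONSON-1 and siDONSON-2.

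*DICER1*, which cuts the precursor's loop, read 0.38 for EBC-1 cells, 0.62 for SK-MES-1 cells, 0.54, 0.61 and 1.02 on siDONSON-1 to siDONSON-3, and 0.35, 0.16 and 0.21 on A549-GE1 to A549-GE3. It was above its control on all 8 arrays, as were 6.48% of all genes, and each transfection array lay above each editing array. As treated RNA was always in Cy5, a dye effect of its probe cannot be told apart from a change common to all treatments. The siDONSON mean was 0.72 (SE 0.12), a 1.65-fold rise with a 95% interval from 1.37-fold to 1.98-fold (limma adjusted p = 0.0183). Without siDONSON-3, the highest array, it was 0.57 and no longer passed (limma adjusted p = 0.0710). The means of 0.50 (SE 0.14) for miR-150-3p and 0.24 (SE 0.12) for LOXL2 editing did not pass (limma adjusted p = 0.0742 and 0.204). Nor did the difference of siDONSON minus LOXL2 editing, from which a common dye effect drops out (0.48, SE 0.16, limma adjusted p = 0.110).

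*TARBP2*, which binds double-stranded RNA beside DICER1, had log2 ratios of 0.61 for EBC-1 cells, 0.22 for SK-MES-1 cells, -0.04, -0.04 and 0.06 on the siDONSON arrays, and -0.26, -0.17 and -0.19 on the editing arrays. The arrays of the 3 treatments did not overlap, with miR-150-3p highest and LOXL2 editing lowest. The share of all genes that separate in this way was not computed. The software's error for the *TARBP2* values was 0.20 to 0.21, and only the EBC-1 value lay outside the software's error limits. No treatment mean passed against its own control (0.42, SE 0.12, for miR-150-3p, limma adjusted p = 0.0744).

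Among the Argonautes, *AGO2*, the member known for cutting its target RNA, read 0.05 for EBC-1 cells, -0.23 for SK-MES-1 cells, -0.17, -0.10 and -0.52 on the siDONSON arrays, and -0.61, -0.68 and -0.60 on the LOXL2 editing arrays. The 3 editing arrays lay close together and were all below the 5 transfection arrays, of which siDONSON-3 came nearest. The editing mean was -0.63 (SE 0.11), or 0.646 of the control level with a 95% interval from 0.542 to 0.769 (limma adjusted p = 0.0110). Leaving out any 1 of the edited samples kept the mean between -0.64 and -0.61 while the adjusted p rose to 0.0689 without A549-GE1, 0.0836 without A549-GE2 and 0.0687 without A549-GE3. The siDONSON mean of -0.27 (SE 0.11) and the miR-150-3p mean of -0.09 (SE 0.13) did not pass (limma adjusted p = 0.169 and 0.679).

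*AGO4*, an Argonaute without known cutting activity, had its high values in the miR-150-3p group, with 0.58 for EBC-1 cells, 0.44 for SK-MES-1 cells, 0.04, -0.14 and 0.02 on the siDONSON arrays, and -0.16, -0.07 and 0.09 on the editing arrays. The miR-150-3p mean was 0.51 (SE 0.11), a 1.42-fold rise (limma adjusted p = 0.0445). The call was a narrow one: it held in 6 of 16 other settings, and it was lost without the EBC-1 array (0.44, limma adjusted p = 0.277), without siDONSON-1 (0.0533) or siDONSON-3 (0.0618), and without A549-GE1, A549-GE2 or A549-GE3 (0.0870, 0.102 and 0.0883). With normexp background correction and within-array loess together, the mean was 0.19 and still passed (limma adjusted p = 0.0454).

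*AGO1* and *AGO3* were each read by 2 probes, and the probes of each gene went different ways. As a mean of its probes, *AGO1* had -0.29 for EBC-1 cells, -0.41 for SK-MES-1 cells, 0.15, 0.12 and 0.15 on the siDONSON arrays, and -0.02, -0.07 and 0.06 on the editing arrays. The brighter *AGO1* probe, however, lay above 0 on all 8 arrays, from 0.04 to 0.42, and the dimmer lay below 0 on all 8, from -0.87 to -0.12. Both probes put the miR-150-3p arrays lowest, at 0.07 and 0.04 for the brighter and -0.66 and -0.87 for the dimmer. A direction for *AGO1* against its control thus depended on the probe. For miR-150-3p the mean was -0.35 over both probes (limma adjusted p = 0.0699) and 0.06 for the brighter alone. With median centring, the mean over both probes was -0.41 and passed (limma adjusted p = 0.0489). The LOXL2 editing mean was -0.01 over both probes and 0.30 for the brighter alone (limma adjusted p = 0.0373). The siDONSON mean was 0.14 over both probes (limma adjusted p = 0.304) and 0.42 for the brighter alone (limma adjusted p = 0.0223). For *AGO3*, the means stayed between -0.15 and 0.15 on all 8 arrays and within the software's error limits, while its brighter probe ranged from -0.34 to 0.35 and its other probe from -0.48 to 0.13. On siDONSON-2 the order of the *AGO3* probes was opposite to that on the other 7 arrays. The 3 probes of *XPO5* were mostly below 0 together, with 1 value of the 24 above it (0.04 in SK-MES-1 cells).

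**Figure D2:**
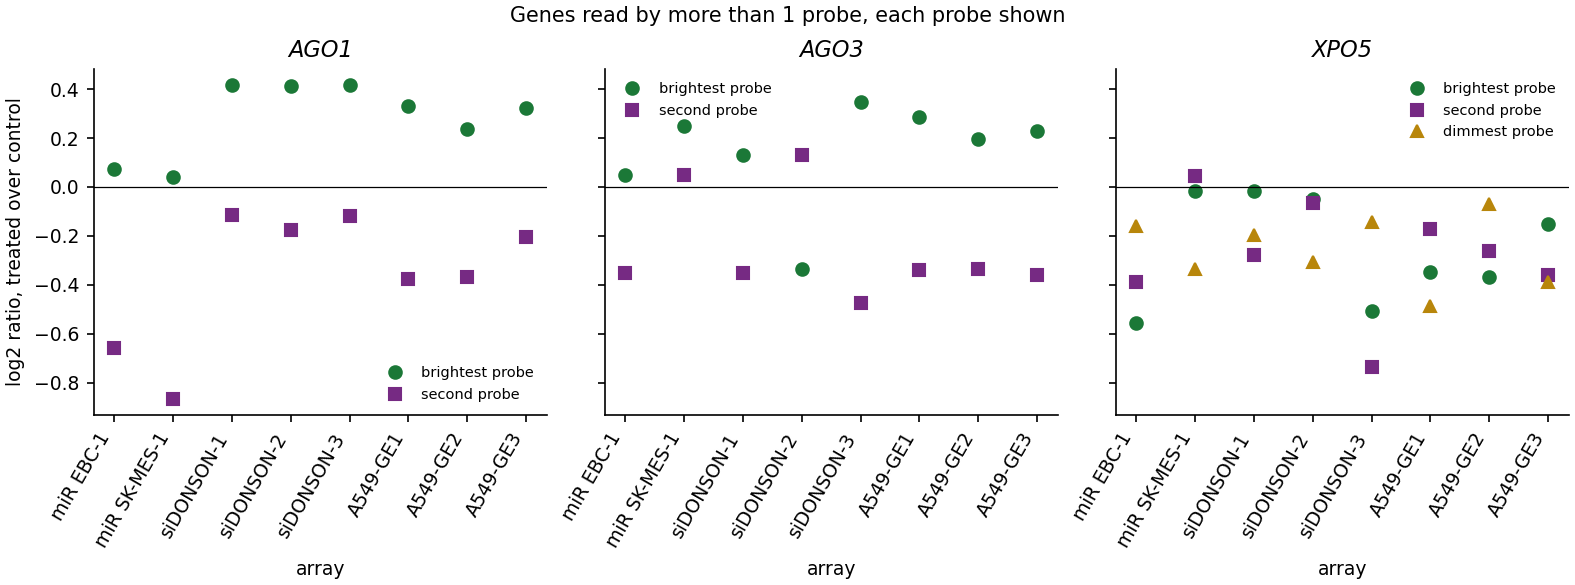
Log2 ratio of treated over control RNA for each probe of *AGO1*, *AGO3* and *XPO5* on the 8 arrays, ordered in the legend by brightness. The *AGO1* probes are separated by the 0 line on every array, whereas 23 of the 24 *XPO5* points lie below it.

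*TNRC6A*, the GW182 scaffold that links Argonaute to the deadenylases, had log2 ratios of 0.65 for EBC-1 cells, 0.63 for SK-MES-1 cells, 0.93, 0.53 and 0.44 on siDONSON-1 to siDONSON-3, and -0.06, 0.11 and -0.07 on A549-GE1 to A549-GE3. All 5 transfection arrays were above 0 and above all 3 editing arrays, which lay around 0. The miR-150-3p mean was 0.64 (SE 0.13), a 1.56-fold rise (limma adjusted p = 0.0418), and the siDONSON mean was 0.63 (SE 0.11), a 1.55-fold rise (limma adjusted p = 0.0209). The LOXL2 editing mean was -0.01 with a 95% interval from -0.26 to 0.25. The siDONSON call was lost without siDONSON-1 (0.49, limma adjusted p = 0.0536) or siDONSON-3 (0.73, 0.0612). The miR-150-3p call held in 7 of 16 other settings and was lost without EBC-1 (0.241), SK-MES-1 (0.0564), siDONSON-3 (0.0521) or A549-GE1, A549-GE2 or A549-GE3 (0.0849, 0.0885 and 0.0869).

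The second question was whether the small RNA transfections differed from genome editing. A dye effect common to all arrays drops out of these differences, but the comparisons share the LOXL2 editing arrays. *TNRC6A* was the member that passed: the mean of the transfection groups exceeded LOXL2 editing by 0.65 on the log2 scale (95% interval 0.33 to 0.96), a 1.57-fold difference in ratio (limma adjusted p = 0.0340), and siDONSON alone exceeded it by 0.64 (SE 0.15, limma adjusted p = 0.0445). Of the 10 genes, 1 passed for the transfections together, beside 5.89% of all genes, and 1 for siDONSON, beside 7.12%. For miR-150-3p minus LOXL2 editing, 0 of 10 passed limma at an adjusted p of 0.05, beside 3.31% of all genes. In that comparison 6 of the 10, and 22.0% of all genes, had an unadjusted p under 0.05, and the *TNRC6A* difference was 0.65 (limma adjusted p = 0.0787). The *TNRC6A* difference of the transfections together was positive in all 16 other settings and passed in 10. It did not pass without the EBC-1 array (limma adjusted p = 0.0677) or without A549-GE1, A549-GE2 or A549-GE3 (0.155, 0.129 and 0.160), and the siDONSON difference did not pass without any 1 of its own 6 arrays (0.0526 to 0.163).

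For 4 of the 10 genes, *TNRC6A*, *DICER1*, *AGO2* and *TARBP2*, all 5 transfection arrays were above all 3 editing arrays, and for 0 of 10 were they all below. Over all genes the shares were 10% and 8.44%. Of the 10 genes, *DICER1* and *TNRC6A* were above 0 on all 5 transfection arrays, as were 11.6% of all genes. *AGO2* was higher by 0.45 (95% interval 0.14 to 0.76, limma adjusted p = 0.0934) and *TARBP2* by 0.41 (0.13 to 0.69, adjusted p = 0.0906) in the transfections, both short of the threshold with the processed signals and past it with normexp and loess (0.40, limma adjusted p = 0.0294, and 0.35, adjusted p = 0.0236). Without the SK-MES-1 array the *TARBP2* difference was 0.51. *DICER1* was higher by 0.37 (0.04 to 0.70, limma adjusted p = 0.172) and *AGO4* by 0.28 (0.02 to 0.55, limma adjusted p = 0.180). *DROSHA* and *AGO1* were lower in the transfections by point estimate, at -0.20 (-0.54 to 0.15, limma adjusted p = 0.475) and -0.10 (-0.32 to 0.13, limma adjusted p = 0.606). For *AGO3*, *DGCR8* and *XPO5* the differences were 0.01, -0.01 and 0.04, with intervals that reached no farther than 0.33 in either direction.

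Within the transfections, miR-150-3p and siDONSON were compared as kinds of duplex, each in its own lines. At the threshold 0 of 10 genes passed limma, beside 2.80% of all genes, and 4, beside 23.0% of all genes, had an unadjusted p under 0.05. *AGO1* was lower with miR-150-3p by 0.49 (95% interval of the difference -0.77 to -0.21, limma adjusted p = 0.0756), *AGO4* was higher by 0.54 (0.21 to 0.86, limma adjusted p = 0.0842) and *TARBP2* was higher by 0.42 (0.08 to 0.77, limma adjusted p = 0.154). For *DROSHA* the difference was -0.47 (-0.90 to -0.04, limma adjusted p = 0.186). Without the SK-MES-1 array, and so with 1 miR-150-3p array, the differences were 0.62 for *TARBP2* and -0.77 for *DROSHA*. *TNRC6A* differed by 0.01, with an interval from -0.38 to 0.40.

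**Figure D3:**
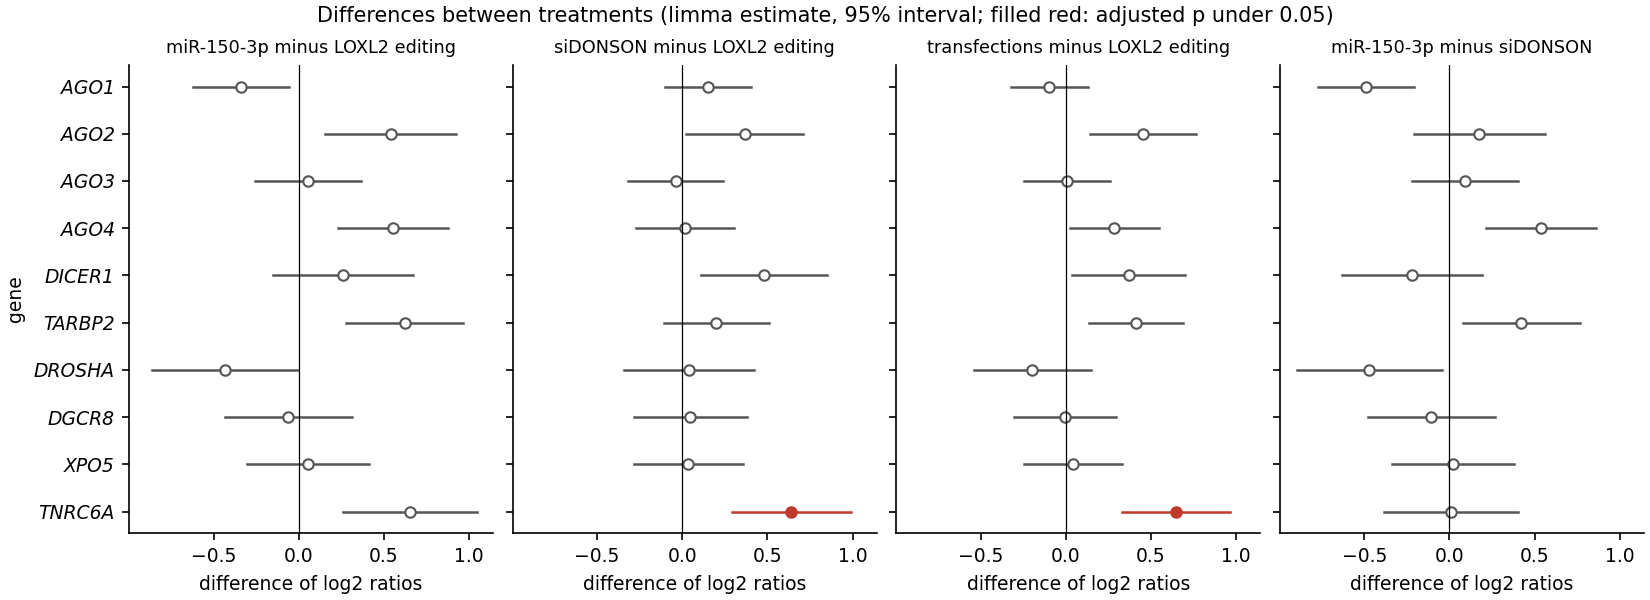
Differences between treatments in the log2 ratio of each of the 10 genes, as limma estimates (points) with 95% intervals (lines); filled red points have an adjusted p under 0.05. *TNRC6A* is filled at 0.64 for siDONSON minus LOXL2 editing and at 0.65 for the transfections minus LOXL2 editing.

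The control channel gave the level of each gene in the control cells of each line, as the log2 green signal minus the array's 75th percentile. These levels are compared between lines within a gene and are given as a description, since EBC-1 and SK-MES-1 had 1 array each and the 3 controls of SBC-3 or of A549 may be the same RNA. SBC-3 was highest for 6 of the 10 genes, SK-MES-1 for 2, and EBC-1 and A549 for 1 each. With the processed signals the widest range was that of *AGO4*, with -0.02 ± 0.11 in SBC-3 (SD, n = 3), -1.07 in SK-MES-1, -1.65 in EBC-1 and -2.14 ± 0.18 in A549 (SD, n = 3), 4.35-fold from highest to lowest. With normexp background correction the *AGO4* range was 1.65-fold, and *DROSHA*, *TARBP2*, *AGO2* and *TNRC6A* then ranged more widely, at 1.97-fold to 2.10-fold. *AGO1* and *AGO3* were also highest in SBC-3 (2.26 ± 0.03 and 2.36 ± 0.04) and lowest in A549 (1.01 ± 0.07 and 1.30 ± 0.04). Their levels in EBC-1 and SK-MES-1 lay between these and differed from each other by 0.01 for *AGO1* and 0.08 for *AGO3*, within 2 SD of the repeated arrays. For both genes this rested on averaging the probes. By the brighter *AGO3* probe alone, SK-MES-1 (2.17) was 1.97-fold above EBC-1 (1.19), which then lay just below A549 (1.23). By the brighter *AGO1* probe alone, EBC-1 (3.51) lay above SK-MES-1 (3.29), which was close to A549 (3.28).

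*AGO2* had another order, with 3.61 in EBC-1, 2.44 ± 0.04 in SBC-3, 2.42 ± 0.03 in A549 and 2.06 in SK-MES-1. EBC-1 was 2.26-fold above the next line, and with the processed signals SBC-3 and A549 did not differ beyond their spread. With quantile normalization SBC-3 (2.55) lay above A549 (2.35), and with normexp background correction it lay below (1.35 against 1.57). *TNRC6A* was highest in A549 (1.48 ± 0.03), the line in which its ratio stayed near 0, and lower in SBC-3 (0.92 ± 0.05), EBC-1 (0.53) and SK-MES-1 (0.01), with each step larger than the spread. *DICER1* and *TARBP2* shared an order at the top, with SBC-3 and A549 within 2 SD of each other (1.88 ± 0.04 and 1.87 ± 0.05 for *DICER1*, 2.79 ± 0.08 and 2.79 ± 0.05 for *TARBP2*). EBC-1 was lowest for both, at 1.09 and 1.76, with SK-MES-1 between at 1.67 and 1.90. With normexp background correction A549 was the highest line for *DICER1* and *TARBP2*, so the order of these neighbours was not settled.

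The Microprocessor genes were highest in SK-MES-1, at 4.88 for *DROSHA* and 1.22 for *DGCR8*. The remaining *DROSHA* levels were 4.50 ± 0.01 in A549, 4.39 ± 0.02 in SBC-3 and 4.12 in EBC-1, and those of *DGCR8* were 0.89 in EBC-1, 0.75 ± 0.02 in A549 and 0.65 ± 0.07 in SBC-3, of which A549 and SBC-3 lay within 2 SD. With quantile normalization SBC-3 lay above A549 for *DROSHA*, by 0.18. *DGCR8* had the narrowest range with the processed signals, 1.48-fold, though with the brightest probe of each gene that of *AGO1* was narrower, at 1.45-fold. *XPO5* was 0.67 ± 0.09 in SBC-3, -0.01 in EBC-1, -0.22 ± 0.06 in A549 and -0.32 in SK-MES-1, of which A549 and SK-MES-1 lay within 2 SD. By the brightest *XPO5* probe alone, A549 (0.97) was farther above SK-MES-1 (0.68).

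**Figure D4:**
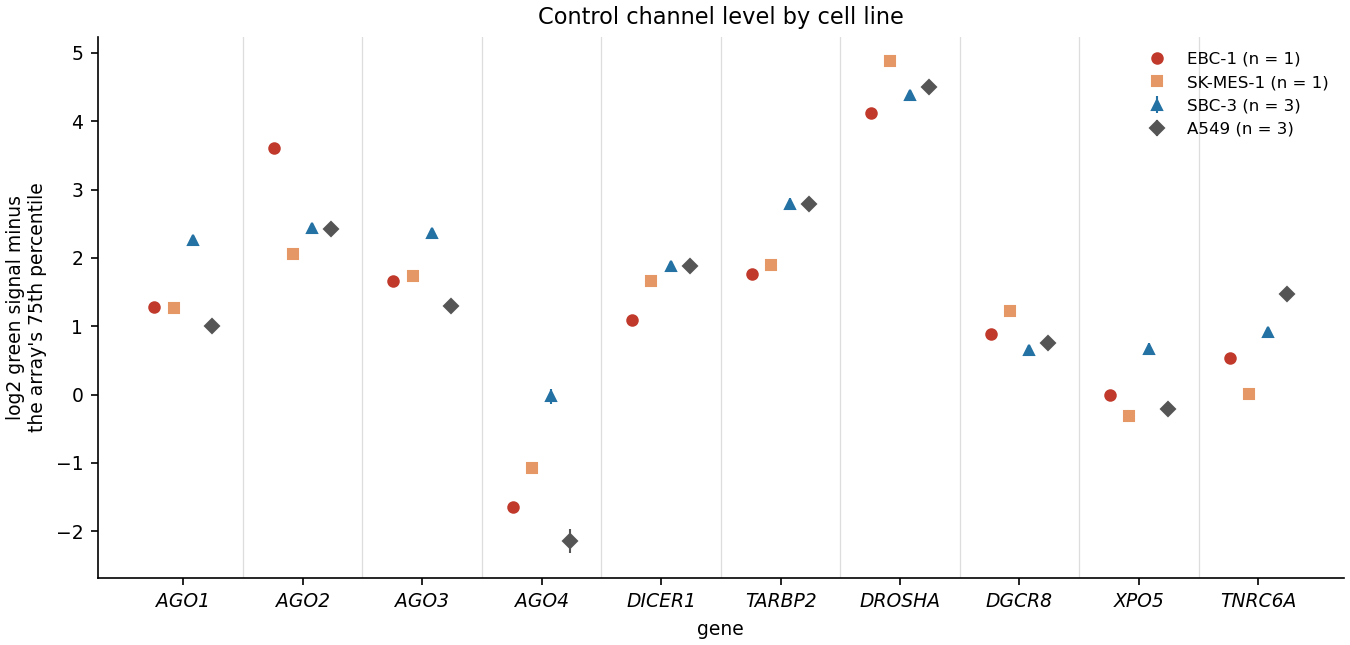
Control channel level of the 10 genes in each line, as log2 green signal minus the array's 75th percentile; bars for SBC-3 and A549 are the SD of 3 arrays and may be hidden by the symbols. *AGO4* spans the widest range on this scale, from -2.14 in A549 to -0.02 in SBC-3, and *AGO2* is highest in EBC-1 at 3.61.

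The machinery around these genes was read with a list of 75 further genes of small RNA biogenesis and silencing, of which 74 had a probe. For miR-150-3p, 1 rose and 2 fell of 68 tested; for siDONSON, 2 rose and 2 fell of 69; for LOXL2 editing, 4 rose and 4 fell of 70. In each treatment the share of the list that passed was below the share of all genes, 5.38%, 7.22% and 14.4%. The list medians were -0.03, -0.08 and -0.06, beside 0.04, 0.03 and 0.02 over all genes tested. In the GW182 family, *TNRC6C* rose by 0.65 (SE 0.14, limma adjusted p = 0.0352) after siDONSON and by 0.94 (SE 0.14, limma adjusted p = 0.00681) after LOXL2 editing, where its arrays read 1.21, 0.76 and 0.84. Its relative *TNRC6A* stayed near 0 on those same arrays. The miR-150-3p mean of *TNRC6C* was 0.25 (limma adjusted p = 0.353), and the third family gene, *TNRC6B*, passed in no treatment, with means of 0.40, 0.12 and 0.09.

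Of the 8 chaperones that help load the duplex into Argonaute, *PTGES3* (the p23 cochaperone of HSP90) and *FKBP4* (an HSP90-binding immunophilin) fell both after miR-150-3p and after LOXL2 editing. *PTGES3* fell by 0.73 (SE 0.13, limma adjusted p = 0.0295) and by 0.71 (SE 0.11, limma adjusted p = 0.00663), with all 5 arrays between -0.94 and -0.52. *FKBP4* fell by 0.62 (limma adjusted p = 0.0304) and by 0.68 (limma adjusted p = 0.00507), and its siDONSON mean of -0.13 was above that of LOXL2 editing by 0.55 (limma adjusted p = 0.0415). The median of the 8 chaperones was -0.45 for miR-150-3p, -0.10 for siDONSON and -0.45 for LOXL2 editing.

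Of the genes that act after RISC binding, *PABPC1*, the cytoplasmic poly(A)-binding protein, fell by 1.05 after LOXL2 editing (SE 0.14, limma adjusted p = 0.00508), with -1.09, -1.06 and -0.99 on its arrays. After siDONSON, *CNOT1*, the scaffold of the CCR4-NOT deadenylase, fell by 0.46 and its partner *CNOT3* fell by 0.44 (limma adjusted p = 0.0367 and 0.0452), while *EIF4E2*, a cap-binding repressor, rose by 0.45 (limma adjusted p = 0.0200). *PNRC1*, a partner of the decapping enzyme, rose by 1.03 after miR-150-3p (SE 0.18, limma adjusted p = 0.0295), with 1.39 for EBC-1 cells against 0.67 for SK-MES-1 cells. After LOXL2 editing, *ZC3H12A*, an RNase also known as Regnase-1 or MCPIP1, rose by 0.73 (limma adjusted p = 0.0206). *HENMT1*, the methyltransferase of PIWI-bound RNAs, rose by 0.83 (limma adjusted p = 0.0348) in a fit without siDONSON-2, which had no value for it. Between treatments, *FKBP4* was the single call on the list in the siDONSON minus LOXL2 editing comparison, and 0 of 67 passed in each of the other 3 (with limma, at an adjusted p of 0.05).

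**Figure D5:**
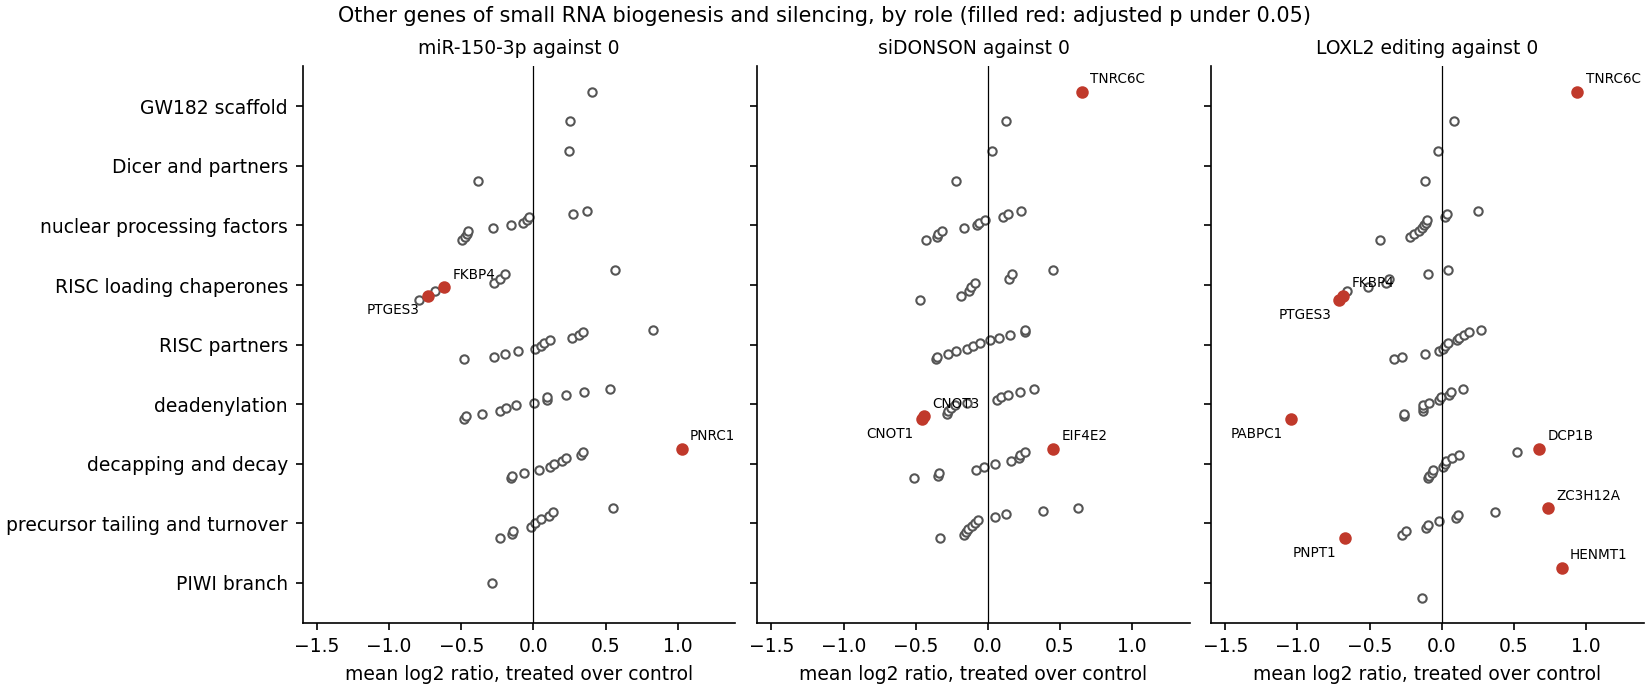
Mean log2 ratio of treated over control RNA for the further genes of small RNA biogenesis and silencing, 1 point per gene, in rows by role (vertical offset within a row only separates points); filled red points with names have an adjusted p under 0.05. *TNRC6C* is filled at 0.65 for siDONSON and 0.94 for LOXL2 editing, and *PTGES3* and *FKBP4* are filled below 0 for miR-150-3p and LOXL2 editing.

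Across the 8 arrays, the genes whose log2 ratios ran most like those of *AGO2*, of 11234 genes above background in both channels on every array, were *FLII* (Pearson r = 0.974), *FBXO33* (0.973) and *ZNF174* (0.970). Like *AGO2*, all 3 had their lowest value on an editing array, with editing values from -0.16 to -0.12 for *FLII*, which encodes an actin-binding protein. Those most like *DICER1* were *VPREB3* (0.990), *PDP1* (0.987) and *ACP1* (0.984). Each of these had its highest value on siDONSON-3, as *DICER1* did, at 1.25, 1.02 and 0.54. The points of these correlations share arrays, slide and lines, and the values are descriptions.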

How the data were processed

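Total RNA of treated cells (Cy5) and control cells (Cy3) was hybridised to 8 arrays on 1 slide, without a dye swap. The authors scanned the arrays and extracted features with Agilent Feature Extraction 12.1.1.1, and the deposited scanner files give background-subtracted, dye-normalized signal intensity per spot with flags for background and outliers. A deposited table of log10 ratios held the same log10 values as the scanner files and was not used further. The red over green processed intensity was expressed as log2, control spots and outlier-marked spots (81 to 133 of 60901 per array) were left out, and probes well above background in at least 1 channel were kept (green 41.1% to 46.4% of spots, red 48.5% to 56.2%, none saturated). Genes were named through each probe's accession and RefSeq (24782 of 50096 accessions matched), and probes of a gene were averaged. The number of arrays limits the precision.

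A limma 3.58.1 fit (R 4.3.3) of 3 groups over 8 arrays tested each group against 0 and 4 differences, two-sided, with Benjamini-Hochberg adjustment over all genes tested and a threshold of 0.05. It was tested on simulated data. The 10 genes and the further lists were chosen with earlier results of these data known. Named from the further list were genes past the threshold, or the 6 with the largest difference where over 6 passed. *TNRC6B* was added after its values were seen. For *AGO2* and *DICER1* the 3 genes with the highest Pearson r were named. Control levels had no test. Replicate numbers did not pair the arrays. Alternatives covered background correction, centring, filters, probe choice, grouping, the spread used and each array left out.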

Additional observations from a re-analysis of the deposited data

Results flagged for a closer look

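With all 8 arrays and the processed signals, the *TNRC6A* response differed between treatments by a test of the difference itself, but not in every other setting. The siDONSON mean exceeded the LOXL2 editing mean by 0.64 on the log2 scale (limma adjusted p = 0.0445). The mean of the transfection groups exceeded the LOXL2 editing mean by 0.65 (limma adjusted p = 0.0340). All 5 transfection arrays lay above all 3 editing arrays, as was so for 10% of all genes. The siDONSON difference passed in 8 of 17 other settings and did not pass without any 1 of its own arrays. The difference of the transfections together passed in 10 of 16. The single *TNRC6A* probe, the cell line and the transfection reagent change or stay with the treatment in this design, and their part was not tested.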

How the results depend on the processing

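Of 1130 single-gene values recomputed, 998 kept their direction and side of the threshold, 58 passed in neither setting but changed sign, 31 newly passed, 42 no longer passed and 1 reversed. The reversed one was *AGO1* after LOXL2 editing, 0.30 with the brightest probe. Of the differences in control level, 52 moved by more than 1 SD of the repeated arrays with normexp and 7 did not, against 34 and 25 with quantile normalization and 15 and 44 with the brightest probe. Of the 180 in all, 8 changed sign, and 3 of these, 1 in each setting, had been over 2 SD of the repeated arrays: *DROSHA* in SBC-3 minus A549 (0.18 with quantile normalization), *DGCR8* in EBC-1 minus A549 (-0.010 with normexp) and *AGO3* in EBC-1 minus A549 (-0.0435 with the brightest probe). With normexp, 3 genes were highest in A549.

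The number of the 10 genes that passed limma moved as follows. With normexp and loess it was 2 for miR-150-3p minus LOXL2 editing, 3 for the transfections minus LOXL2 editing and 1 for miR-150-3p minus siDONSON (beside 7.07%, 9.81% and 4.71% of all genes). With median centring the number stayed at 2 for miR-150-3p (beside 5.99% of all genes), but *AGO1* then passed as lower and *AGO4* did not pass. Without a filter on dim probes, and with the prior spread taken from all genes (an alternative chosen after seeing the data), it was 0 for miR-150-3p, 0 for siDONSON minus LOXL2 editing and 0 for the transfections minus LOXL2 editing. The shares of all genes were 0.882%, 3.87% and 3.26% without the filter, and 2.59%, 4.44% and 3.62% with that prior. With probes above background in both channels it was 1 for miR-150-3p minus LOXL2 editing (beside 4.75% of all genes), and with the brightest probe 2 for LOXL2 editing (beside 15.3%). With only the spread of the arrays compared it was 0 for miR-150-3p (beside 0% of all genes) and 0 for siDONSON (beside 0.18%). These 0 counts thus say nothing particular about the 10 genes. In the same setting it was 5 for LOXL2 editing (beside 37.8%) and 1 for miR-150-3p minus LOXL2 editing (beside 5.48%). With EBC-1 and SK-MES-1 as separate groups it was 5 for miR-150-3p (beside 18.9% of all genes), 2 for miR-150-3p minus LOXL2 editing, 2 for the transfections minus LOXL2 editing and 2 for miR-150-3p minus siDONSON (beside 10.4%, 10.3% and 10.2%). Leaving out a siDONSON or LOXL2 editing array in turn gave 0 to 2 for miR-150-3p (beside 0.358% to 7.28% of all genes) and 0 to 2 for siDONSON (0.655% to 7.57%). It gave 0 to 1 for LOXL2 editing (2.99% to 17.9%), for miR-150-3p minus LOXL2 editing (0.0621% to 4.89%) and for the transfections minus LOXL2 editing (0.217% to 8.02%). For siDONSON minus LOXL2 editing (0.722% to 8.58%) and miR-150-3p minus siDONSON (0.295% to 3.34%) it gave 0. Where 1 miR-150-3p array was left, it was assumed to vary like the other groups, and those counts are left out here. The causes were not tested.

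Same-numbered siDONSON and LOXL2 editing arrays did not deviate together (correlations -0.02, -0.03 and -0.01), and not every array correlated best with its own number. With the replicate block, 0 of the 10 genes passed for siDONSON minus LOXL2 editing (*TNRC6A* 0.64, limma adjusted p = 0.0908) and 456 genes in all, against 916 without it. Naming by accession alone equals the naming used here and was not run separately, and a slide block could not be fitted with 1 slide. The counts rest on 2 or 3 arrays per treatment, 1 dye orientation and mostly 1 probe per gene.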
